A study of Oryza sativa Japonica Group with 38 samples.

Results

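Levels of long noncoding RNAs (lncRNAs), which are transcripts that encode no protein, were compared between rice seedlings exposed to heat at 50 °C and untreated seedlings. All 7231 loci of the authors' 2 deposited tables were followed, and 8 of the 38 libraries entered the comparison. The seedlings were japonica rice (Oryza sativa), 2 weeks old, raised on half-strength MS medium under a cycle of 12 h light at 28 °C and 12 h dark at 22 °C, which heated and untreated plants had in common. The sources used here do not give how long the heat lasted. Each condition gave 4 libraries: poly(A)+ RNA, poly(A)- RNA and small RNA from whole cells, and total RNA from nuclei. The loci comprised 1873 with RAP identifiers (beginning with OS), 1849 with EPlOSAG identifiers and 3509 assembled by the authors (XLOC). No gene name or role is attached to them in the sources used here, and nearby protein-coding genes were not analysed here. Protocols describe Trizol extraction, depletion of ribosomal RNA and a split of the remaining RNA on oligo(dT) beads. Cold, drought, high light and high salt seedlings and roots of seedlings are cited where they show how a level compares outside heat, and the drought columns of both poly(A) fractions cover a group with 2 labelled samples.

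Heat shock in plants is known for a fast transcriptional response driven by heat shock factors, in which chaperone genes are induced and many other genes are turned down. Most lncRNAs made by RNA polymerase II are capped and polyadenylated like mRNAs, and are recovered with oligo(dT) beads, whereas the poly(A)- fraction holds transcripts without a tail or with a short one. Nuclear RNA is enriched in nascent and retained transcripts, and small RNA libraries hold short RNAs, which at a lncRNA locus can be processed products or degradation fragments of longer RNA.

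FPKM, the unit of all levels below, is a count of fragments divided by the exon length of the locus and by the reads of its library. A locus was counted as higher or lower in heat when the difference was at least 2-fold on the log2(FPKM + 1) scale and at least 1 FPKM was reached in heat or in untreated seedlings. Each condition had 1 library per fraction, so the differences have no replicate check and no test was made. Values in brackets after a level are exact 95% Poisson intervals on the reads recovered from the FPKM, and they cover counting error only. The libraries of heated seedlings held 76.7 M (reads in units of 1e6), 50.2 M, 51.8 M and 42.7 M reads for poly(A)+, poly(A)-, nuclear and small RNA, and those of untreated seedlings 74.5 M, 80.8 M, 24.6 M and 39.7 M. Depths rest on the largest step in the FPKM values that gives whole reads. For untreated nuclei, the shallowest library by this reading, a step that put the depth at 49.2 M would also give whole reads, all of them even, and narrower intervals. The nuclear library of heated seedlings stood apart from the other nuclear libraries of whole seedlings, a difference taken up with the nuclear loci. Seedlings are mixtures of cells, so fewer cells of a type and less RNA per cell cannot be told apart.

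In poly(A)+ RNA many loci differed between heated and untreated seedlings, in both directions. Of 3353 loci that reached 1 FPKM, 424 (12.6%) were higher in heat and 541 (16.1%) were lower; the median log2 difference was -0.02. Poly(A)- RNA had 152 of 604 loci (25.2%) higher and 10 (1.66%) lower; the median log2 difference was 0.67. Nuclear RNA had 74 of 475 loci (15.6%) higher and 70 (14.7%) lower at a median of -0.32; among loci with at least 5 FPKM that median was 0.27, with 40 higher and 18 lower. Small RNA had 9 of 1105 loci (0.814%) higher and 253 (22.9%) lower at a median of -0.65. The counting interval of the ratio excluded 1 for 418 of the 424 and 535 of the 541 poly(A)+ loci. It also excluded 1 for 151 of 152 and 10 of 10 poly(A)- loci, 74 of 74 and 69 of 70 nuclear loci, and 9 of 9 and 252 of 253 small RNA loci.

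The counts in 3 of the 4 fractions depended on the shift of the whole library. Measured from the median of each comparison, poly(A)+ RNA had 441 loci higher (13.2%) and 531 lower (15.8%), close to the counts above. Poly(A)- RNA then had 25 higher (4.14%) and 41 lower (6.79%), so the share of higher calls was 37.9% after centring and 93.8% before. Nuclear RNA had 101 higher (21.3%) and 25 lower (5.26%), with 80.2% of calls higher after centring and 51.4% before. Small RNA had 33 higher (2.99%) and 24 lower (2.17%), with 57.9% of calls higher after centring and 3.44% before. Other stresses, which share the same untreated library of each fraction, were shifted too. The median log2 difference of small RNA was -0.65 in heat, -0.85 in cold, -0.87 in drought, -0.18 in high light and -0.39 in high salt. That of poly(A)- RNA was 0.67 in heat, 0.80 in cold, -0.11 in drought, 0.96 in high light and 1.08 in high salt. For poly(A)- RNA, 48 of the 152 higher loci had their lowest level of the 6 seedling libraries in untreated plants, and 62 had their highest in heat.

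**Figure D1:**
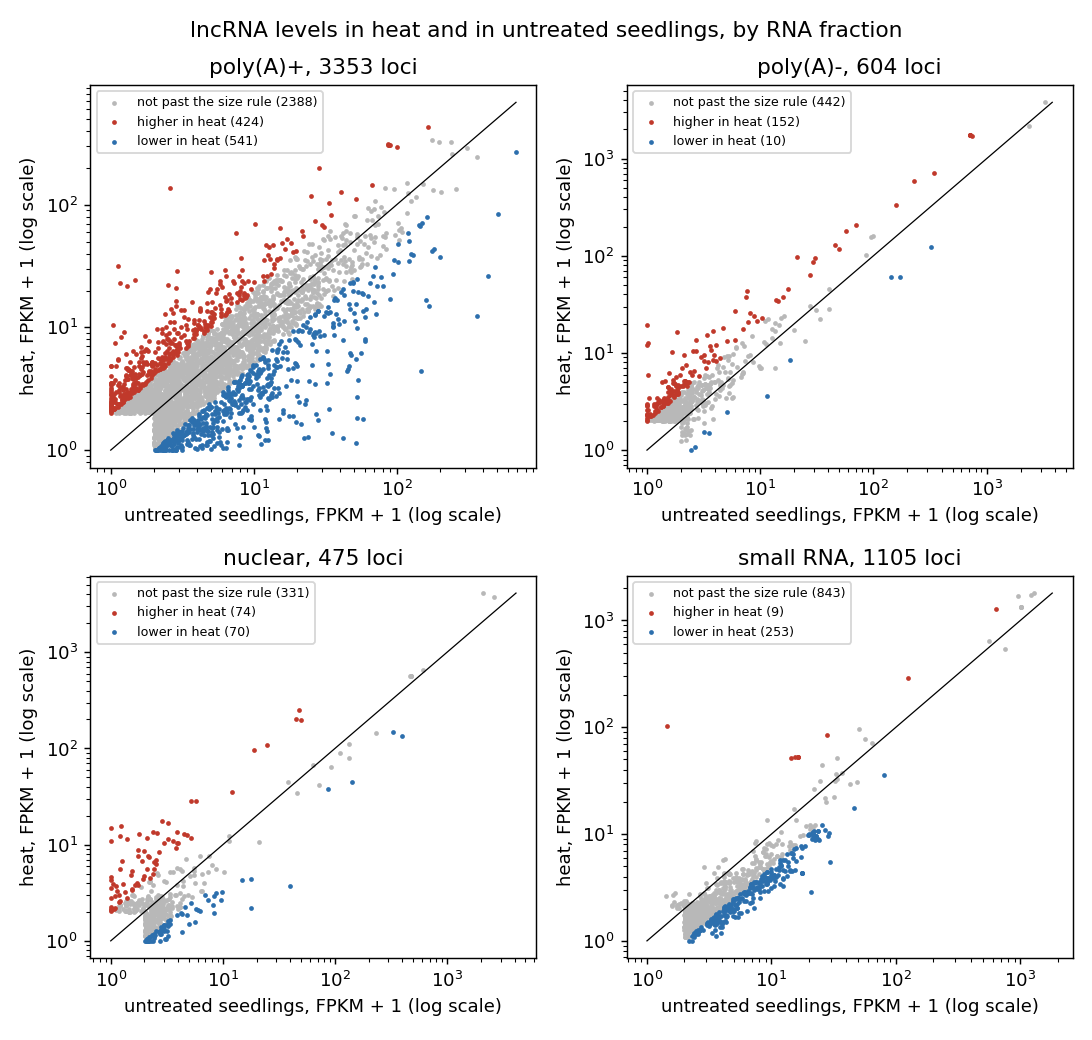
Level of each locus in heat (vertical axis) against untreated seedlings (horizontal axis), FPKM + 1 on log scales, in poly(A)+, poly(A)-, nuclear and small RNA; the line marks equal levels. Red loci were higher in heat (424, 152, 74 and 9) and blue loci lower (541, 10, 70 and 253); in poly(A)- RNA the cloud lies mostly above the line and in small RNA mostly below it.

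The loci that rose most in poly(A)+ RNA had their highest seedling level in heat, and their levels outside heat differed. XLOC_013492, a single-exon locus of 594 nt on chromosome 10 (14172139 to 14172733), lies on the + strand. Its level was 135 FPKM (132 to 139) in heat and 1.60 FPKM (1.25 to 2.02) in untreated seedlings. Its log2 difference of 5.71 was the largest rise in this fraction, and its level was 3.04 FPKM in cold, 0.486 in drought, 8.15 in high light and 5.09 in high salt. The other fractions held almost none of it. Poly(A)- RNA had 1 read in heat and 0 in untreated seedlings, and nuclear RNA had 5 and 0. OS06G0335950, a RAP locus of 3 exons and 1729 nt on chromosome 6 (13383815 to 13385580), was near 0 outside heat, with 9.43 FPKM (8.91 to 9.96) in heat and 0.0311 FPKM (0.00846 to 0.0795) in untreated seedlings. These rest on 1250 and 4 reads, a ratio of 303 (118 to 1115), and no other seedling library exceeded 0.103 FPKM. Neither nuclear library held a read of this locus.

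OS12G0136500, a locus of 1996 nt on chromosome 12 (1772559 to 1774555), had the highest heat level of the leading rises. It had 200.1 FPKM (198 to 202) in heat and 27.5 FPKM (26.7 to 28.3) in untreated seedlings, against 2.42 to 20.1 FPKM in the other stresses. Its poly(A)- level was also higher, at 8.50 FPKM (7.94 to 9.09) in heat and 1.14 FPKM (0.982 to 1.32) in untreated seedlings. Nuclear levels were 4.37 and 3.36 FPKM in heated and untreated plants, within 2-fold, so the rise was seen in both whole-cell fractions of long RNA. Heat was the highest seedling level of this locus in poly(A)+ RNA but not in the other long fractions. High salt had 12.6 poly(A)- FPKM and 9.51 nuclear FPKM, and drought had 8.47 nuclear FPKM. XLOC_026251 and XLOC_029331 overlap on opposite strands of chromosome 12 (11272313 to 11273082). XLOC_026251 had 31.0 poly(A)+ FPKM in heat and 0.128 FPKM in untreated seedlings, and XLOC_029331 had 22.1 and 0.157 FPKM. High salt came next, at 4.52 and 2.67 FPKM. The libraries kept strand, but the sources used here do not name the strand setting of the read counter, so the pair may be 1 result.

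The largest decreases in poly(A)+ RNA included some of the abundant loci of untreated seedlings. OS06G0318800 on chromosome 6 (12359509 to 12360112, 603 nt) had 11.4 FPKM (10.4 to 12.4) in heat and 364 FPKM (358 to 369) in untreated seedlings. XLOC_047053, a locus of 2 exons on chromosome 3 (4249539 to 4250108), had 3.40 FPKM (2.82 to 4.06) in heat and 148 FPKM (144 to 152) in untreated seedlings. Neither locus passed the size rule in poly(A)- RNA, where OS06G0318800 had 21.1 FPKM in heat and 10.7 FPKM in untreated seedlings and XLOC_047053 had 8.34 and 4.34 FPKM. XLOC_053058 on chromosome 4 (13465756 to 13466868, 1112 nt) had the largest decrease on the log2 scale, by 5.50, with 0.141 FPKM (0.0727 to 0.246) in heat and 50.7 FPKM (49.2 to 52.2) in untreated seedlings. Its poly(A)- levels were 2.81 FPKM in heat and 2.40 FPKM in untreated seedlings, a ratio whose counting interval includes 1 (0.946 to 1.44). XLOC_017321 had 0.264 FPKM in heat and 41.1 FPKM in untreated seedlings, and XLOC_055989 had 0.805 and 57.2 FPKM. These 5 loci had their lowest level of the 6 seedling libraries in heat and their highest in untreated plants.

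Heat was the extreme library for most of the rises and for a minority of the decreases. Of the 424 higher poly(A)+ loci, 348 had their highest level of the 6 seedling libraries in heat, and 137 were at least 2-fold above each of the other 5. These 137 are 3.76% of the 3643 loci that reached 1 FPKM in any seedling library, and after centring 63 loci (1.73%) met this rule. By the same rule the untreated library had 144 loci, drought 118, high salt 45, cold 44 and high light 11. After centring drought had 250 loci, high salt 75, untreated seedlings 50, cold 35 and high light 9, so such counts were not particular to heat. The median poly(A)+ log2 difference from untreated plants was -1.02 in drought and -1.17 in high salt, and those shifts enter the uncentred count. Of the 541 lower loci, 109 had their lowest level in heat and 397 had their highest in untreated seedlings. In those 397 every stress library was below the untreated one, and all of these comparisons rest on the same untreated library. A total of 9 loci (0.247%) were at least 2-fold below each of the other 5 libraries in heat.

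**Figure D2:**
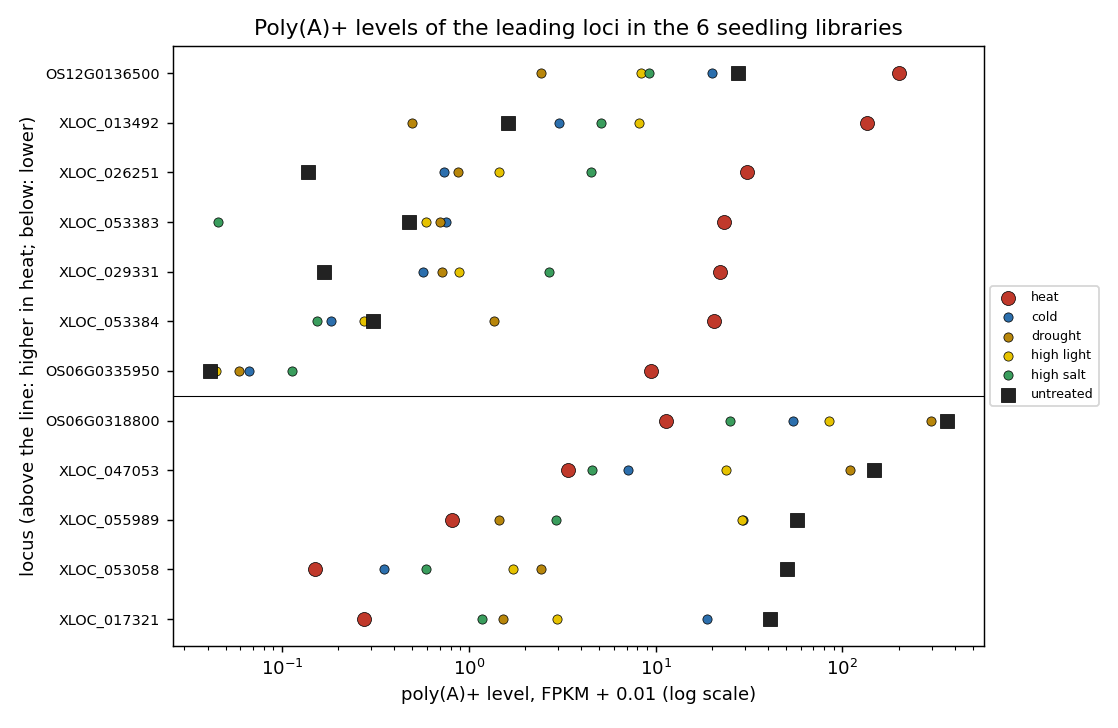
Poly(A)+ level (FPKM + 0.01, log scale) of the loci with the largest rises and decreases and of those farthest above the other libraries, in the 6 seedling libraries; each point is 1 library. Above the line heat is the highest point of every locus, from 9.43 FPKM for OS06G0335950 to 200.1 FPKM for OS12G0136500; below it heat is the lowest and the untreated library the highest.

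Long loci went up more often and short loci went down more often in poly(A)+ RNA. Among 801 loci of at least 1000 nt, 131 (16.4%) were higher and 66 (8.24%) lower; their median log2 difference was 0.33. Among 459 loci under 300 nt, 52 (11.3%) were higher and 116 (25.3%) lower; their median was -0.35. The 2093 loci between these lengths had 241 higher and 359 lower. The higher loci had a median length of 627 nt and the lower ones 453 nt, beside 580 nt for all 3353. Exon number gave a smaller contrast. Loci of 3 or more exons moved less often, with 37 higher and 43 lower of 435, whereas those of 2 exons had 40 higher and 73 lower of 335. RAP and XLOC loci had similar shares: 115 higher and 171 lower of 1046 RAP loci, and 298 higher and 365 lower of 2280 XLOC loci.

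A minority of the loci that rose in poly(A)+ RNA lay side by side. When neighbours on one strand with gaps of at most 10 kb were joined, 81 of the 424 higher loci (19.1%) fell in 32 runs, and 52 of the 541 lower loci (9.61%) in 24 runs. Joining all 3353 loci in this way put 820 (24.5%) in runs. A smaller set of loci has fewer neighbours to join, so that share is not a background for the higher or the lower loci. Whether they lay side by side more often than other sets of their size was not tested. One run of higher loci was made of 5 tandem EPlOSAG copies, described with poly(A)- RNA, and without all such copies 76 of 418 higher loci (18.2%) fell in 31 runs. The longest run held 7 loci over 25849 bases of the + strand of chromosome 10 (16713727 to 16739576). Its members, XLOC_013817, XLOC_013819, XLOC_013820, XLOC_013822, XLOC_013828, XLOC_013829 and XLOC_013834, had 1.3 to 4.00 poly(A)+ FPKM in heat and 0 to 0.899 FPKM in untreated seedlings. XLOC_013829, the longest at 5396 nt, had 2.14 FPKM (2.00 to 2.28) in heat and 0.483 FPKM (0.417 to 0.556) in untreated seedlings. Nuclear RNA of the same locus went the other way, with 0.186 FPKM (0.139 to 0.244) in heat and 1.81 FPKM (1.59 to 2.05) in untreated seedlings, and XLOC_013828 and XLOC_013834 were lower there too. After centring, none of these 3 passed as lower in nuclear RNA. A second run, noticed after its values were seen, held 6 loci, XLOC_079816 to XLOC_079821, on the + strand of chromosome 7 (28834783 to 28843432). Their poly(A)+ levels were 2.90 to 6.24 FPKM in heat and 0.276 to 1.83 FPKM in untreated seedlings. Loci in a run may be pieces of 1 transcript or of an unlisted gene, so the loci of a run are not separate results.

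Few loci moved the same way in all 3 long RNA fractions. Of 251 loci that could be compared in all of them, 8 (3.19%) were higher in heat and 0 (0%) lower. Of the 8 loci, 6 formed 3 neighbouring pairs on the same strand. The first pair, XLOC_053383 (16814257 to 16815627) and XLOC_053384 (16817678 to 16817903) on chromosome 4, was among the 5 largest rises in each of these fractions. XLOC_053383 had 1263 poly(A)- reads in heat and 0 in untreated seedlings, at least 677-fold higher when 3 reads are taken as the limit of the untreated library. XLOC_053384 had 125 and 0 reads, at least 67.0-fold higher. In nuclei XLOC_053384 had 13.8 FPKM (11.8 to 16.1) in heat and 0 reads in untreated seedlings, at least 25.5-fold higher. Among the other stresses XLOC_053383 reached at most 0.748 poly(A)+, 0.124 poly(A)- and 0.176 nuclear FPKM. Its small RNA level did not follow, with 2.89 FPKM (2.47 to 3.36) in heat and 4.45 FPKM (3.91 to 5.05) in untreated seedlings.

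The second pair, XLOC_037647 and XLOC_037648 on the - strand of chromosome 2, had its largest log2 differences in poly(A)- RNA, 3.62 for XLOC_037647 and 2.55 for XLOC_037648. XLOC_037647 had 11.6 FPKM (10.2 to 13.1) in poly(A)- RNA of heated seedlings, from 252 reads, against 1 read in untreated ones. Its poly(A)+ level was 2.38 FPKM in heat and 0.124 FPKM in untreated seedlings. XLOC_037648 had 2.75 poly(A)+ FPKM in heat and 0.0769 FPKM in untreated seedlings, and drought reached 2.29 FPKM, so this rise had a counterpart in another stress. The third pair, OS04G0549650 and XLOC_058877 on the - strand of chromosome 4 (27506407 to 27509736), was already abundant without heat. OS04G0549650, a locus of 3 exons, had 143 poly(A)+ FPKM (140 to 147) in heat and 65.9 FPKM (63.6 to 68.4) in untreated seedlings. Its nuclear level differed more, with 10.8 FPKM (9.69 to 12.0) in heat and 1.10 FPKM (0.627 to 1.78) in untreated seedlings, a ratio of 9.86 (5.98 to 17.4). XLOC_058877 gave 81.8 and 33.9 FPKM in poly(A)+ RNA and 6.68 and 0.766 FPKM in nuclear RNA of heated and untreated plants.

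The other two loci were XLOC_039679 on chromosome 2 and XLOC_020424 on chromosome 11. XLOC_039679 had 45.8 poly(A)+ FPKM in heat and 11.2 FPKM in untreated plants. Its poly(A)- levels were 9.31 and 0.654 FPKM and its nuclear levels 7.54 and 0.992 FPKM, in the same order of heated and untreated plants. XLOC_020424 had more poly(A)- RNA in 3 other stresses than in heat, with 44.5 FPKM in heat, 95.3 FPKM in cold, 101 FPKM in high light, 153 FPKM in high salt and 16.7 FPKM in untreated plants. Its nuclear level was still highest in heat, at 10.5 FPKM in heat, 1.59 FPKM at most in the other stresses and 2.25 FPKM in untreated seedlings. Across the 8 loci, heat gave the highest of the 6 seedling levels for 7 in poly(A)+ RNA, 5 in poly(A)- RNA and 8 in nuclear RNA. After centring, 2 loci passed as lower in all 3 fractions. As higher, 5 loci (all among the 8) then passed in all 3. OS04G0549650, XLOC_058877 and XLOC_020424 did not, their poly(A)- log2 differences being 1.38, 1.23 and 1.36 before that library's shift of 0.67 was taken off.

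**Figure D3:**
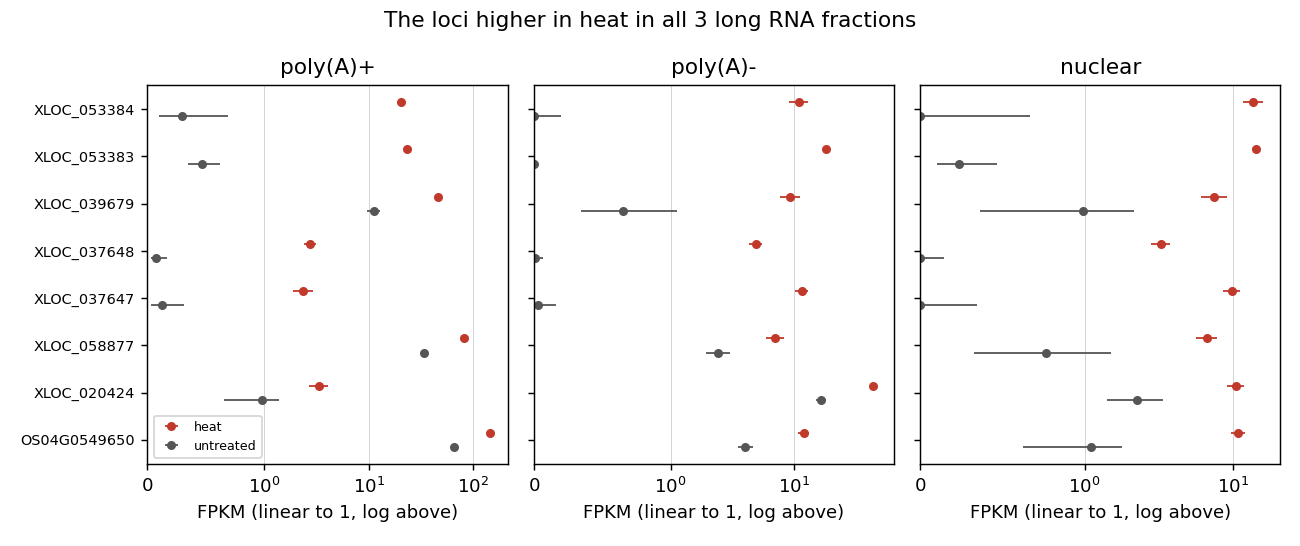
Levels in heat (red) and untreated seedlings (grey) of the 8 loci higher in heat across the 3 long RNA fractions; FPKM is on a linear scale to 1 and a log scale above, and bars are exact 95% Poisson intervals. XLOC_053383 and XLOC_053384 go to above 10 FPKM in all 3 fractions in heat, against less than 1 FPKM in untreated seedlings.

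Among nuclear libraries of whole seedlings that of heated seedlings stood apart. Of the 601 loci with at least 1 FPKM in any nuclear seedling library, 55 (9.15%) were at least 2-fold above all the others in heat, and 61 (10.1%) after centring. The same count was 0 for cold, 1 for drought, 0 for high light, 0 for high salt and 5 for untreated seedlings. Below all the others by as much were 7 loci (1.16%) in heat. Of the 74 loci higher than in untreated nuclei, 73 also had more than each of the 4 other stresses. The 55 loci were 45 XLOC, 6 EPlOSAG and 4 RAP loci, beside 312, 19 and 144 of all 475 compared with untreated nuclei. Of the 6 EPlOSAG loci, 5 were copies of 525 or 526 nt, described with small RNA, which count as 1 result. Of the 55, 52 had 1 exon, beside 367 of the 475. For poly(A)+ RNA, 18 of the 36 that could be compared were higher in heat and 5 lower, beside 90 and 73 of all 402 nuclear loci compared in both. For poly(A)- RNA, 16 of 51 were higher and 6 lower, beside 78 and 9 of all 294, and the calls of that fraction include its shift of 0.67.

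**Figure D4:**
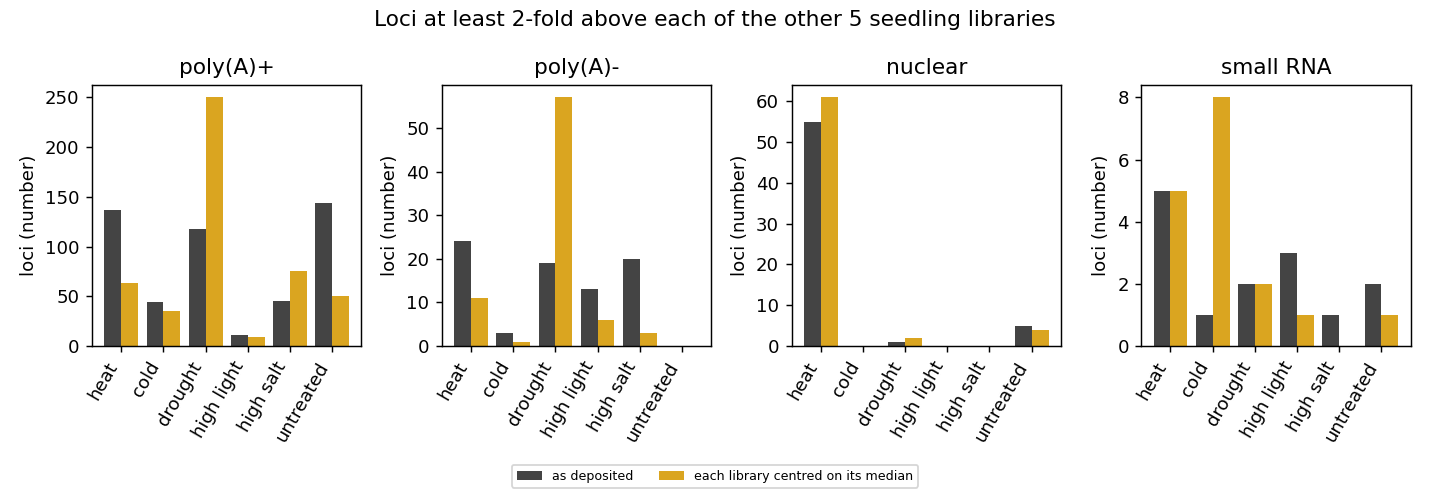
Number of loci whose level was at least 2-fold above each of the other 5 seedling libraries (vertical axis), for heat, 4 other stresses and untreated seedlings in 4 RNA fractions, as deposited and with each library centred on its median. Heat had 137, 24, 55 and 5 loci in poly(A)+, poly(A)-, nuclear and small RNA as deposited, and in nuclear RNA no other library exceeded 5. In poly(A)+ RNA the untreated library had 144 as deposited, and after centring drought had 250 against 63 for heat.

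Nuclear rises were concentrated in the loci that the authors classed as poly(A)-. Of 50 such loci, 29 (58%) were higher and 2 lower, at a median log2 difference of 1.11. The 29 include 5 EPlOSAG copies of 525 or 526 nt, described with small RNA, which may share reads and count as 1 result. The authors' poly(A)+ class had 33 higher and 32 lower of 285, and their bimorphic class 12 higher and 35 lower of 139. The poly(A)- class also had a larger share of higher loci in the other long fractions. In poly(A)- RNA 33 of its 74 loci (44.6%) were higher and 3 lower, beside 25.2% higher of all loci, and 7 were higher after centring. In poly(A)+ RNA 8 of 21 (38.1%) were higher and 0 lower, beside 12.6% higher of all loci. The median nuclear level of the 50 loci was 4.69 FPKM in heat, 1.26 in cold, 0.878 in drought, 1.12 in high light, 1.12 in high salt and 1.51 in untreated seedlings. Their median poly(A)- level was 7.83 FPKM in heat, 15.1 in cold, 3.45 in drought, 16.4 in high light, 25.3 in high salt and 5.54 in untreated plants, so in that fraction heat did not have the highest median. Roots held little nuclear RNA of the loci that rose. Of the 74 higher loci, 65 (87.8%) were under 1 FPKM in root nuclei, beside 341 of all 475 (71.8%), and their median there was 0.0733 FPKM.

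The most abundant nuclear rises included loci that fell in poly(A)- RNA. Of 294 loci compared in both fractions, 7 (2.38%) were higher in nuclear and lower in poly(A)- RNA in heat, and all 7 also after centring. This set was singled out after its values were seen. XLOC_010040, a locus of 567 nt on the - strand of chromosome 1 (33032567 to 33033134), had 252 FPKM (246 to 258) in heated nuclei and 46.5 FPKM (43 to 50.2) in untreated nuclei. Its poly(A)- level was 59.0 FPKM (56.2 to 61.9) in heat and 142 FPKM (138 to 145) in untreated seedlings. XLOC_029543 on the - strand of chromosome 12 (13392363 to 13392781) had 199 FPKM (193 to 205) in heated nuclei and 43.5 FPKM (39.6 to 47.7) in untreated nuclei, but 122 FPKM (118 to 127) and 324 FPKM (318 to 330) in poly(A)- RNA of heated and untreated seedlings. XLOC_066469, a locus of 2 exons on the - strand of chromosome 5 (20973828 to 20974930), went the same way with 109 and 23.7 FPKM in heated and untreated nuclei, and 59.2 and 172 FPKM in poly(A)- RNA. In all 7 loci the nuclear level was the highest of the 6 seedling libraries in heat, and in 5 the poly(A)- level was the lowest. The exceptions in poly(A)- RNA were XLOC_010040, with 1.31 FPKM in drought and 27.2 FPKM in high light, and XLOC_078921, with 0 and 1.17 FPKM.

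The 4 remaining loci of this set were less abundant. XLOC_078921 had 27.4 FPKM in heated and 4.19 FPKM in untreated nuclei, and 2.59 and 10.5 FPKM in poly(A)- RNA. It overlaps a listed locus on the opposite strand. XLOC_027354 had 5.98 and 1.52 FPKM in heated and untreated nuclei, and 7.5 and 17.2 FPKM in poly(A)- RNA. OS12G0559250 and XLOC_027369 are neighbours on the + strand of chromosome 12 (22855137 to 22856603) and unlike the others fell strongly in poly(A)+ RNA. OS12G0559250 had 5.18 FPKM (4.11 to 6.43) in heat and 45.9 FPKM (42.5 to 49.4) in untreated seedlings there, and 480 FPKM in drought. In nuclei it had 109 reads in heat and 2 in untreated seedlings, 10.3 and 0.399 FPKM. Poly(A)+ levels of 4 of the 7 were higher in heat, among them XLOC_078921 with 127 reads in heat and 3 in untreated seedlings. High salt had more poly(A)+ RNA of these 4 loci than heat, up to 113 FPKM for XLOC_029543. In roots all 7 were low, at up to 1.96 FPKM in nuclei and, in whole cells, 2.65 poly(A)- FPKM and 0.1 poly(A)+ FPKM.

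Other nuclear rises came without a fall in poly(A)- RNA. OS11G0171350, a RAP locus of 2 exons on the + strand of chromosome 11 (3490174 to 3490738), had 11.3 FPKM (9.86 to 12.9) in heated nuclei and 0.210 FPKM (0.0255 to 0.759) in untreated nuclei. Its next neighbour on that strand, XLOC_018258, picked after its values were seen, had 11.8 and 0.794 FPKM in heated and untreated nuclei. Poly(A)- levels in heated and untreated seedlings were 3.19 and 1.73 FPKM for OS11G0171350 and 4.67 and 2.51 FPKM for XLOC_018258, both within 2-fold on the log2(FPKM + 1) scale. OS11G0171350 had 136 poly(A)+ FPKM in heat and 82.3 FPKM in untreated seedlings, within 2-fold, and 1024 FPKM in drought. XLOC_018258 rose there too, with 127 FPKM in heat and 39.8 FPKM in untreated seedlings. XLOC_005753 on chromosome 1 had 199 FPKM (191 to 206) in heated nuclei and 49.2 FPKM (44 to 54.8) in untreated nuclei, and a listed locus lies opposite it. It was also higher in poly(A)+ RNA, with 51.5 FPKM in heat and 16.2 FPKM in untreated seedlings, while its poly(A)- levels were 100.4 and 84.8 FPKM.

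A second set of loci went the opposite way, lower in nuclear and higher in poly(A)+ RNA. There were 15 of 402 (3.73%), singled out after their values were seen, and 5 of them after centring. Of the 58 loci lower in nuclei and compared in poly(A)+ RNA, 15 were higher and 15 lower there, beside 90 and 73 of all 402. The share of higher loci was thus near that of all loci compared. XLOC_014981, a single-exon locus of 424 nt on the - strand of chromosome 10 (1861923 to 1862347), had 2.73 FPKM (2.09 to 3.52) in heated nuclei and 38.7 FPKM (35 to 42.6) in untreated nuclei, the largest nuclear decrease. Its nuclear level was between 23.3 and 37.9 FPKM in the other stresses. Its poly(A)+ level was 5.04 FPKM (4.30 to 5.88) in heat and 0.285 FPKM (0.130 to 0.541) in untreated seedlings. OS01G0911133, a RAP locus of 2 exons on the + strand of chromosome 1 (39690104 to 39690626), had 2.17 FPKM in heated and 7.63 FPKM in untreated nuclei, and 63.4 and 14.2 FPKM in poly(A)+ RNA. XLOC_050238 on chromosome 3 had 2.24 and 8.75 FPKM in heated and untreated nuclei, and 36 and 7.17 FPKM in poly(A)+ RNA. OS01G0259933 had 3.32 and 13.7 FPKM in nuclei, and 11.1 and 3.97 FPKM in poly(A)+ RNA of heated and untreated plants. XLOC_006326 had 1.09 and 5.01 FPKM in nuclei, and 36 and 0 poly(A)+ reads. Of the 15 loci, 14 had the highest poly(A)+ level of the 6 seedling libraries in heat and 14 the lowest nuclear level. All 15 also had their highest nuclear level in untreated seedlings, whose nuclear library was the shallowest by the depths used. The 15 include XLOC_013828, XLOC_013829 and XLOC_013834 of the run on chromosome 10, which are not separate results. None (0 of 15) passed the size rule in poly(A)- RNA in either direction.

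**Figure D5:**
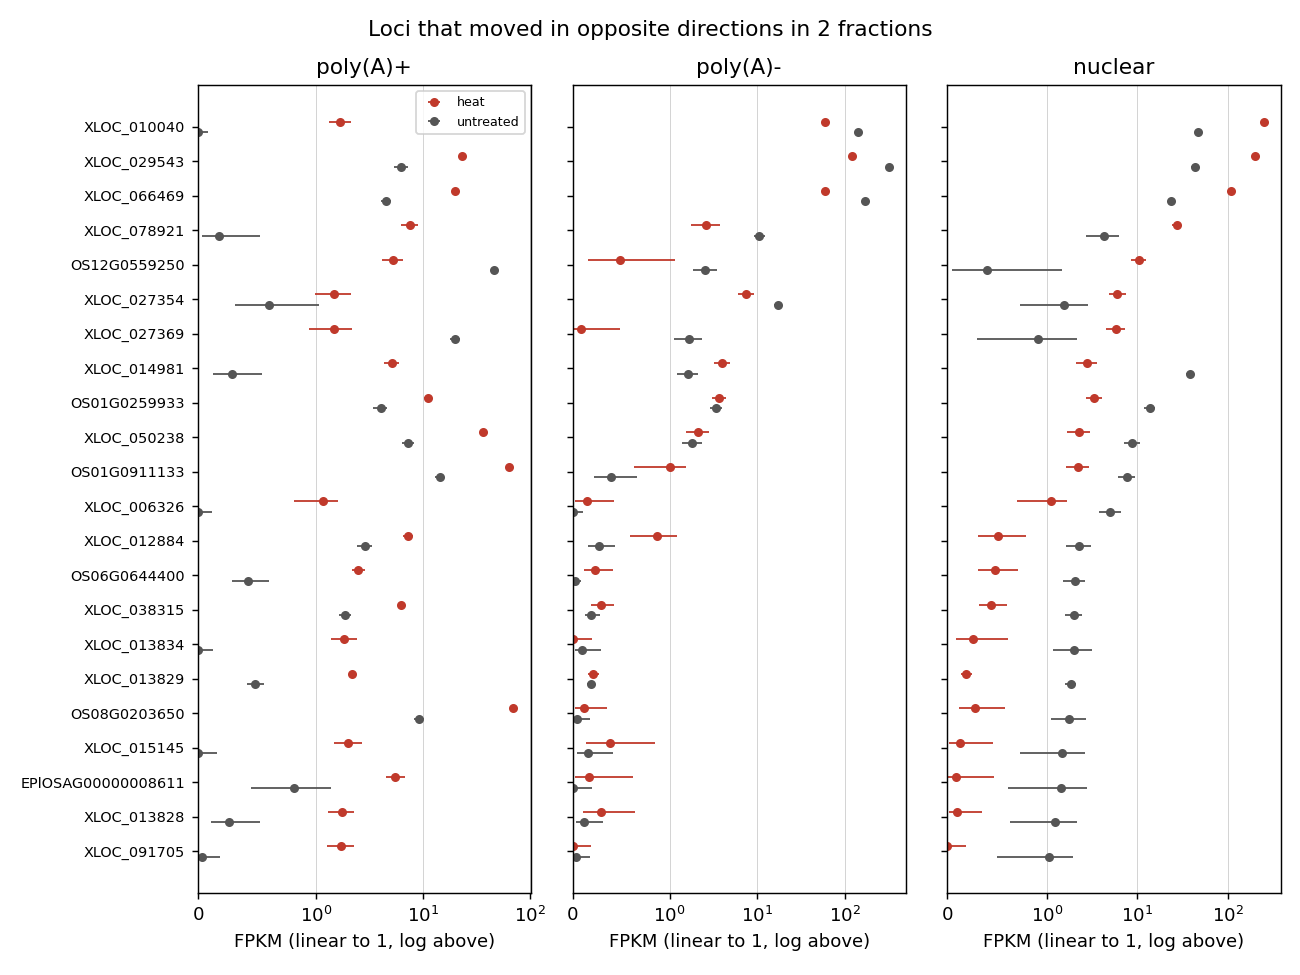
Levels in heat (red) and untreated seedlings (grey) of the 7 loci higher in nuclear and lower in poly(A)- RNA (top 7) and the 15 lower in nuclear and higher in poly(A)+ RNA; FPKM is on a linear scale to 1 and a log scale above, and bars are exact 95% Poisson intervals. In the top 7 red lies right of grey in nuclear and left of it in poly(A)- RNA; in the 15 loci red lies left of grey in nuclear and right of it in poly(A)+ RNA.

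The most frequent pairing of nuclear and poly(A)+ changes was nevertheless a shared rise. Of the same 402 loci, 23 (5.72%) were higher in both fractions, 15 (3.73%) lower in both and 9 (2.24%) higher in nuclear but lower in poly(A)+ RNA. After centring these counts were 26, 6 and 14. The shared decreases included OS03G0285850, a RAP locus of 2 exons on the + strand of chromosome 3 (9849590 to 9850194). It had 1.20 FPKM (0.761 to 1.80) in heated and 16.7 FPKM (14.2 to 19.6) in untreated nuclei, and 1.55 and 22.1 FPKM in poly(A)+ RNA. OS04G0492450 had 1.63 and 8.63 FPKM in nuclei, and 15.8 and 158 FPKM in poly(A)+ RNA, of heated and untreated plants. OS02G0572500, with 3 exons, had 3.42 and 16.8 FPKM in nuclei, and 11.1 and 58.8 FPKM in poly(A)+ RNA. Nuclear levels were lower still in cold, at 0.828 FPKM for OS03G0285850, 0.636 FPKM for OS04G0492450 and 1.69 FPKM for OS02G0572500. Of the 15 shared decreases, 3 had their lowest seedling level in heat in nuclei and 2 in poly(A)+ RNA. Untreated seedlings had the highest level for 12 in nuclei and for 15 in poly(A)+ RNA. XLOC_074014 fell in nuclear RNA, to 0.945 FPKM in heat against 7.41 FPKM in untreated seedlings, and in poly(A)- RNA, where it had 0 reads in heat and 70 in untreated seedlings. Its poly(A)+ levels, 13.3 and 23.2 FPKM, were within 2-fold.

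Poly(A)- RNA held few changes beyond its overall shift. Heat was at least 2-fold above all other seedling libraries for 24 of 1285 loci (1.87%), and for 11 (0.856%) after centring. It was as far below all of them for 3 loci (0.233%). High salt was above all others for 20 loci, drought for 19, high light for 13, cold for 3 and the untreated library for 0. After centring drought had 57 such loci, high light 6, high salt 3, cold 1 and untreated seedlings 0. OS03G0803066, a locus of 283 nt on the - strand of chromosome 3 (33512944 to 33513227), had 15.6 FPKM (13.6 to 17.8) in heat and 0.831 FPKM (0.5 to 1.3) in untreated seedlings, and at most 3.53 FPKM in the other stresses. Its poly(A)+ level was 4.42 FPKM in heat and 2.70 FPKM in untreated seedlings, and it had 0 nuclear reads in heat and 1 in untreated seedlings, so the rise was seen in poly(A)- RNA. The most abundant higher loci were 6 EPlOSAG loci of 1811 nt, 5 of them in tandem at the start of chromosome 9 (3625 to 37148) and 1 on chromosome 2. The authors' tables give these loci no name, but RefSeq's annotation of another rice assembly (ASM3414082v1) lists ribosomal RNA genes of the same length, 1811 nt, 511 on chromosome 9 and 1 on chromosome 2. The 6 loci may thus be copies of ribosomal RNA, which the protocol depleted, and not lncRNAs; their identifiers matched no RefSeq entry, and their sequences were not compared. They carried 10417 of the 13934 FPKM summed over the 152 higher poly(A)- loci in heat. Their poly(A)- levels were 1712 to 1743 FPKM in heat and 708 to 736 FPKM in untreated plants, and their poly(A)+ levels 292 to 309 FPKM and 86.4 to 100.2 FPKM. High salt was higher still in poly(A)+ RNA, with 886 FPKM for EPlOSAG00000008521. Their nuclear levels were within 2-fold, with 563 to 647 FPKM in heat and 470 to 604 FPKM in untreated seedlings. The copies have near-equal values and count as 1 result, since the sources used here do not say how reads mapping to several places were assigned. After centring, none of the 6 was above 2-fold in poly(A)- RNA, whereas all 6 then counted as higher in small RNA.

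In small RNA the 9 higher loci were led by one with no counterpart in long RNA. XLOC_069398, a locus of 384 nt on the + strand of chromosome 6 (8367050 to 8367434), had 101 FPKM (95.9 to 106) in heat, from 1651 reads, and 0.460 FPKM (0.185 to 0.947) in untreated seedlings, from 7 reads. High salt had 91.2 FPKM, while cold, drought and high light had at most 0.529 FPKM. In both whole-cell fractions of long RNA it had at most 0.387 FPKM in heated and untreated plants, and in nuclear RNA 1.91 and 1.17 FPKM. Another 5 of the 9 were EPlOSAG copies of 525 or 526 nt on chromosomes 1, 4, 10 and 12. Their small RNA levels were 50.7 to 52.1 FPKM in heat and 13.4 to 15.3 FPKM in untreated seedlings, with 3 distinct values in heat, so they may share reads and count as 1 result. They were the 5 loci (0.4% of 1250) that stood at least 2-fold above all other small RNA libraries in heat, and 5 loci (0.4%) did so after centring; 1 locus (0.08%) was as far below all of them. The same copies were higher in heat in poly(A)- RNA, with 9.82 to 36.3 FPKM in heat and 2.69 to 14.9 FPKM in untreated seedlings, and in nuclear RNA, with 2.36 to 11.8 FPKM and 0.542 to 4.25 FPKM. Their poly(A)- rise did not pass after centring. In poly(A)- RNA high light and high salt were above heat for all these copies except EPlOSAG00000046965. EPlOSAG00000046998 had 46.9 FPKM in high light and 49.7 FPKM in high salt, against 36.3 FPKM in heat. The other 3 of the 9 higher small RNA loci were XLOC_029553 with 83.3 FPKM in heat and 26.9 FPKM in untreated seedlings, XLOC_075080 with 287 and 125 FPKM, and XLOC_048089 with 1279.6 and 635 FPKM. For XLOC_029553 high salt was above heat, at 92.7 FPKM, and for XLOC_075080 drought was, at 316 FPKM. For XLOC_048089 heat was the highest seedling level, but high salt had 1181 FPKM, drought 1176 FPKM and cold 1048 FPKM. XLOC_048089 has XLOC_043227 on its opposite strand, which had 432 FPKM in heat and 164 FPKM in untreated seedlings in poly(A)+ RNA but 0.676 and 0.661 FPKM in small RNA.

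Lower small RNA loci were mostly short EPlOSAG loci, as were the small RNA loci tested as a whole. The lower loci comprised 199 EPlOSAG, 43 XLOC and 11 RAP loci of 253, beside 781, 262 and 62 of all 1105, and their median length was 260 nt, beside 275 nt. Of the 253, 229 had their highest level of the 6 seedling libraries in untreated plants. A twin on the opposite strand covering the same interval was listed for 67 of them, beside 438 of all 1105. The largest decrease was that of OS09G0345350, a RAP locus of 2 exons on the - strand of chromosome 9 (10792035 to 10792857), with 1.85 FPKM (1.32 to 2.53) in heat and 19.8 FPKM (17.9 to 21.9) in untreated seedlings. Its poly(A)+ level was 2.46 FPKM in heat and 1.01 FPKM in untreated seedlings, so the long RNA did not show the decrease. In high salt the small RNA level was 11.4 FPKM, and in cold, drought and high light 2.32 to 3.75 FPKM. The other 4 of the 5 named decreases were copies of an EPlOSAG locus of 1719 nt, 5 in all, each with 3.30 FPKM in heat and 16.6 FPKM in untreated seedlings. They lie on chromosome 9 and overlap the 1811 nt loci on the same strand, each of which had 1326 FPKM in heat and 1009 FPKM in untreated seedlings in small RNA. Reads of such overlapping loci may have been divided between them. EPlOSAG00000001961 on chromosome 1, chosen after its values were seen, had 4.43 FPKM (3.23 to 5.93) in heat and 28.8 FPKM (25.5 to 32.4) in untreated seedlings, against at most 0.444 FPKM in the other stresses. This locus overlaps a listed locus on the opposite strand.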

How the data were processed

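Libraries kept strand through the dUTP method, per the labels' protocols. Levels were deposited by the authors as FPKM per transcript, in 2 tables with coordinates. TopHat2, DESeq2 and IRGSP-1.0 are named, per the submitters' processing notes, without stating what each was used for. The sources used here do not name the read counter, its strand setting or its handling of multiply mapped reads.

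Transcripts were reduced to 1 value per locus. Multiplied by exon length, 100% of 21352 FPKM values checked in the 8 columns came out as whole multiples of a step of their column (up to 200 reads, within 0.05 reads). The step gave depth and reads, except at 78 loci with several transcripts. The size rule used a pseudocount of 1 FPKM. Named loci were the 5 largest changes per fraction and direction that also passed after centring, with a counting interval of the ratio excluding 1 and no twin locus on the opposite strand over the same interval (equal values were taken in table order), the 3 highest in heat, those higher in 3 fractions, the longest run, and the 5 farthest above the other seedlings. Sets moving oppositely in 2 fractions, repeated copies, the 9 higher small RNA loci, a second run and 2 single loci were added after their values were seen. Members and lists were chosen with earlier results of these data known. Alternatives were centring, upper quartile scaling, a pseudocount of 0.1, other minimums and folds, and leaving out loci that may share reads. The size rule was tested on simulated data. No identifier matched the RefSeq table (0 matches), and 16 columns of leaves and panicles were not used. Python 3.11.15, numpy 2.4.6, pandas 2.3.3, scipy 1.17.1 and matplotlib 3.10.9 were used.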

Additional observations from a re-analysis of the deposited data

How the results depend on the processing

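With 1 library per group, leaving out a replicate was not possible. No paired analysis was possible because no result comes from a test and each group has 1 library. Centring on the median gave 25 higher and 41 lower loci in poly(A)- RNA, 25 lower in nuclear RNA, 33 higher and 24 lower in small RNA, 5 higher and 2 lower in all 3 long fractions, and 63 and 11 loci above all other seedling libraries in poly(A)+ and poly(A)- RNA. Upper quartile scaling gave 27 and 50 in poly(A)- RNA, 26 lower in nuclear RNA, and 30 and 37 in small RNA. A pseudocount of 0.1 gave 702 higher in poly(A)+ RNA, 328 and 22 in poly(A)- RNA, 170 lower in nuclear RNA and 599 lower in small RNA. A minimum of 5 FPKM gave 221 and 337 in poly(A)+ RNA, 61 and 5 in poly(A)- RNA, 40 and 18 in nuclear RNA and 136 lower in small RNA, and it turned the nuclear median to 0.27, against -0.32. A 4-fold rule gave 47 and 121, 15 and 0, 24 and 4, and 1 and 7 loci higher and lower in poly(A)+, poly(A)-, nuclear and small RNA, and 2 higher in all 3 long fractions. Without EPlOSAG loci small RNA had 4 higher and 54 lower. Joining neighbours within 2 kb and 50 kb put 32 and 81 lower poly(A)+ loci in runs. Stricter minimums and folds count fewer loci by construction; the cause of the library shifts that centring takes off was not tested. Of the log2 differences of named loci, 39, 69 and 42 moved beyond counting error under centring, upper quartile scaling and the pseudocount of 0.1, and 0 changed direction. Nuclear counting intervals rest on 24.6 M untreated reads by the step used.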
